A study of Mus musculus with 120 samples.

Results

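Ribosome profiling sequences the mRNA stretches covered by translating ribosomes, so that the level of a gene's footprints reflects how much of its protein is being made. Here the footprints of untreated mouse embryonic fibroblasts (MEFs) labelled ATF4-/- were set against those of untreated WT MEFs, in a study of the PERK arm of the unfolded protein response. The genes described are those with a deposited footprint total above 0 in both genotypes and of at least 10 RPKM (reads scaled to the length of the coding sequence and to the depth of the library) in at least 1 of them, which were 7312 of the 22417 genes in the table. Of these, 6726 had a value in every single library and could be tested. Pooled totals of untreated eIF2a S51A MEFs, in which the alpha subunit of eIF2 cannot be phosphorylated, are set beside some values. Just inside the threshold lay Brca1, at 10.0 RPKM in WT and 5.15 RPKM in ATF4-/- cells, and just outside it lay Trim12a, at 9.999 and 0.932 RPKM.

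All cells were grown in DMEM with serum and received no thapsigargin, the calcium pump inhibitor that the study used to stress the ER in other cultures. Detergents divided them into a cytosol (digitonin) and an ER (DDM) fraction, and there were 2 libraries per genotype and fraction, 8 in all. The labels give C57BL/6 as the background of the WT cells and trace the ATF4-/- cells to Hettmann et al., but give no strain, sex, age or number of embryos for the latter and do not say which part of Atf4 was removed. Genotype, cell line and strain therefore cannot be told apart in any value below. Whether the pair of libraries behind each group was grown apart is not stated, and a p-value here therefore reflects scatter between libraries that could be purely technical. The ER and cytosol libraries were counted as separate samples although fractions may share cells. The recovered ATF4-/- libraries held 5777810 to 8505094 reads, the WT libraries 2161493 to 11099359, and library a is the deeper of each pair. RPKM is relative to each library's total, and fewer cells of a kind cannot be told apart from fewer footprints per cell.

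ATF4 is a bZIP transcription factor whose mRNA is translated preferentially when the initiation factor eIF2 is phosphorylated. It switches on genes for amino acid synthesis and uptake, tRNA charging and redox balance, and with CHOP it drives a stress programme that includes Trib3 and Chac1. Unstressed fibroblasts in culture also contain some ATF4, and MEFs without it are known to need added amino acids and reducing agents. Fibroblasts also secrete matrix and chemokines, the latter through NF-kB, and respond to interferon.

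Promoter stretches of 7 genes with a match, all lower in ATF4-/- cells, are shown first. They are from RefSeq on GRCm38.p6, read 5′ to 3′ on the gene's strand. For Chac1, Nupr1, Slc7a11 and Asns the capitals mark the C/EBP-ATF element TGATGNAA, the kind of site ATF4 dimers bind, on either strand (TTNCATCA on the other). For Ifit1 and Isg15 they mark the interferon-stimulated response element GAAA, any 2 bases, GAAA (TTTC, any 2 bases, TTTC on the other strand), and for Cxcl1 the kappaB site GGG, any 3 bases, TTCC (GGAA, any 3 bases, CCC on the other strand). Matches overlap one another in Isg15 and Cxcl1.
Chac1 (chr2:119351013-119351092, + strand): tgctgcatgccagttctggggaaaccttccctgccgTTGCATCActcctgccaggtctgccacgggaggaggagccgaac
Nupr1 (chr7:126625537-126625616, - strand): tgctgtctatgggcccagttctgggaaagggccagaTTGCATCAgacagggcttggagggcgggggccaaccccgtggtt
Slc7a11 (chr3:50443636-50443715, - strand): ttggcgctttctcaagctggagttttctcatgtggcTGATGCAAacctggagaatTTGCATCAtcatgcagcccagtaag
Asns (chr6:7693210-7693289, - strand): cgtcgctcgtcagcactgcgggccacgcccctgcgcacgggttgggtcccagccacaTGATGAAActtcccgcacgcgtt
Ifit1 (chr19:34640750-34640829, + strand): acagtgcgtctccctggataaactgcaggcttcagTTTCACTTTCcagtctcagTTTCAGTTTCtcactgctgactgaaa
Isg15 (chr4:156200852-156200931, - strand): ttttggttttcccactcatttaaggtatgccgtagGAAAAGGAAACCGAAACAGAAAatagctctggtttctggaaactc
Cxcl1 (chr5:90891121-90891200, + strand): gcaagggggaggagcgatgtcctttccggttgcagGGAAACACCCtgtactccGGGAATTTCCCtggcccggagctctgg

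The C/EBP-ATF element occurred in 3.97% of the 32851 RefSeq promoter windows (250 bases before to 50 after a start), the response element in 3.44% and the kappaB site in 5.56%. Counted per gene, the shares were 4.51%, 3.99% and 6.31% of 27025 genes. Among list genes with a promoter entry, the C/EBP-ATF element was found in 8 of 18 ATF4-CHOP effectors, 5 of 11 tRNA synthetases, 4 of 14 amino acid synthesis genes and 2 of 10 amino acid transporters. Carriers of the element included Got1, which was higher in ATF4-/- cells, and Atf3, which did not pass the test. The response element was found in 12 of 22 interferon genes and the kappaB site in 8 of 13 NF-kB genes. A promoter was matched to 5126 of the 6726 tested genes of the comparison. Over these, the C/EBP-ATF element lay in 1.66% of the genes called higher in ATF4-/- cells, 3.38% of those called lower and 2.20% of those not called. In the same order the shares were 3.18%, 4.44% and 3.52% for the response element and 6.75%, 8.12% and 7.16% for the kappaB site. For each motif the share was highest among genes called lower. A match describes these letters only.

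Atf4 itself (chr15:80255184-80257541, + strand) was lower but not silent. It stood at 2.82, 5.37, 6.91 and 7.98 RPKM in the ATF4-/- libraries and at 31.7, 57.3, 100.5 and 73.8 RPKM in the WT libraries, where each set of 4 values, here and below, runs ER library a, ER library b, cytosol library a, cytosol library b. All 4 ATF4-/- libraries lay below all 4 WT libraries. The log2 change of log2(RPKM + 1), averaged over both fractions, was -3.26 ± 0.24, adjusted p = 1.6e-05, and the mean level was 11.4-fold lower. Between 64 and 133 reads of Atf4 were recovered per ATF4-/- library; with the deleted part unknown, these reads do not check whether a working protein is made. No tested neighbour was called lower. Smcr7l, the nearest gene upstream, gave 0.07 ± 0.20, adjusted p = 0.79, and Rps19bp1, the next gene downstream, gave 0.37 ± 0.14, adjusted p = 0.057. Farther upstream Tab1, a kinase-binding protein gene, was higher (0.47 ± 0.13, adjusted p = 0.015) and Rpl3, a ribosomal protein gene, gave 0.40 ± 0.16, adjusted p = 0.066. Rps19bp1 and Rpl3 passed as higher after scaling, at adjusted p = 0.0045 and 0.0081. Eif2s1, which encodes the eIF2 subunit that stress kinases phosphorylate, did not pass the test (-0.50 ± 0.21, adjusted p = 0.073).

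More genes were lower than higher in the ATF4-/- cells, but the balance depended on how the libraries were scaled. Of 9330 genes tested, 1218 (13.1%) were higher and 3587 (38.4%) lower at an adjusted p under 0.05, 4805 (51.5%) in all. Among the 6726 genes of the comparison, 1035 were higher, 2591 were lower and 3100 did not pass. The median log2 change was -0.28 over all genes tested and -0.27 over those of the comparison. Median-of-ratios scaling, with factors taken separately among the ER libraries and among the cytosol libraries, moved the overall median to -0.04. After this scaling 2057 (22%) were higher and 2451 (26.3%) lower, and among the genes of the comparison 1732 were higher and 1718 lower. Counts called scaled or after scaling, below, are from this fit. Counts for gene lists, below, are to be read beside the shares of all 9330 genes, 13.1% higher and 38.4% lower before scaling. In the alternative fits the counts over all genes moved too. They were 1523 higher and 3004 lower with voom weights on the recovered reads, and 1014 and 3062 in a fit of all footprint libraries. They also moved as single libraries were left out, so a shift of a list in such fits may be shared by all genes. The 1218 genes called higher before scaling were all called higher after it, the 2451 called lower after scaling were all called lower before it, and no call changed direction. In the pooled totals 440 of the 7312 genes (6.02%) were at least 2-fold higher and 1423 (19.5%) at least 2-fold lower, which became 817 and 895 after the totals were divided by their median ratio. Before that division 30 were at least 8-fold higher and 190 at least 8-fold lower.

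**Figure D1:**
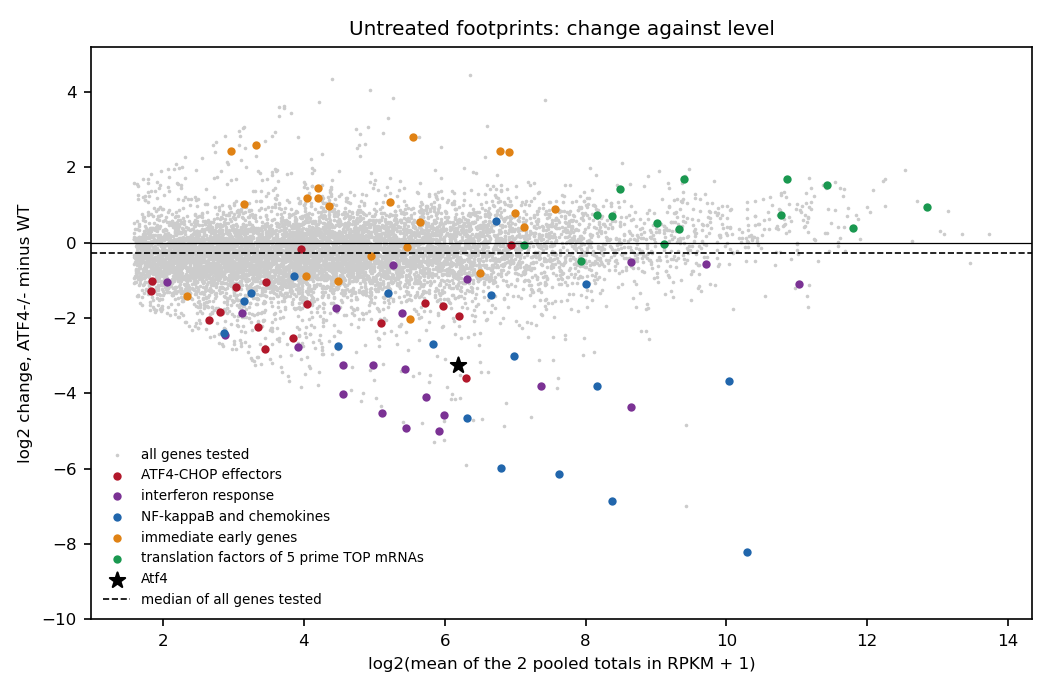
Each point is 1 of 9330 tested genes, with log2 of the mean pooled total (RPKM + 1) on the horizontal axis and the log2 change of ATF4-/- against WT on the vertical axis; colours mark 5 gene lists, the star marks Atf4 and the dashed line the median of all genes (-0.28). NF-kB and interferon genes reach farthest below 0, down to Cxcl5 at -8.22, and immediate early and 5′ TOP genes lie mostly above it.

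The genes that ATF4 and CHOP switch on during stress were lower in untreated ATF4-/- cells. Of 17 tested effectors of this list, 15 were lower, 0 were higher and 2 did not pass, and their median log2 change was -1.69, against -0.28 for all genes; the split was also 15 to 0 after scaling. No gene of the list was higher at an unadjusted p under 0.05 in limma, nor with voom. Nupr1, a small chromatin-associated stress protein, stood at 3.25, 3.05, 6.53 and 7.099 RPKM in the ATF4-/- libraries and at 37.998, 57.7, 103 and 92.7 RPKM in the WT libraries. Trib3, a pseudokinase that restrains ATF4 and AKT signalling, stood at 0.348, 0.504, 0.359 and 0.336 RPKM in the ATF4-/- libraries and at 4.801, 7.35, 11.2 and 14.7 RPKM in the WT libraries. Chac1, which degrades glutathione, stood at 0.965, 0.599, 0.812 and 1.17 RPKM in the ATF4-/- libraries and at 4.06, 7.49, 10.3 and 11.5 RPKM in the WT libraries. For each of these 3 genes every ATF4-/- library was below every WT library, and cytosol libraries were above ER libraries in WT. The changes were -3.59 ± 0.16, adjusted p = 1.4e-06 for Nupr1, -2.82 ± 0.17, adjusted p = 5.5e-06 for Trib3 and -2.23 ± 0.19, adjusted p = 4e-05 for Chac1, with mean levels 14.6-fold, 24.6-fold and 9.38-fold lower.

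Other regulators of the programme fell as well. Atf5, another uORF-controlled bZIP factor, stood at 1.196, 1.42, 1.601 and 0.673 RPKM in the ATF4-/- libraries and at 8.09, 12.7, 10.7 and 17.1 RPKM in the WT libraries, a change of -2.54 ± 0.22, adjusted p = 4.2e-05. Ddit3, which encodes CHOP and stayed below the minimum of 10 RPKM in both totals, stood at 0.457, 0.53, 0.108 and 0.283 RPKM in the ATF4-/- libraries and at 2.02, 8.09, 4.42 and 5.21 RPKM in the WT libraries. Its genotypes did not overlap, although its level was low throughout. Cebpb and Cebpg, C/EBP partners of ATF4, changed by -1.69 and -2.13, and Ddit4 and Sesn2, which restrain mTORC1, by -1.93 and -1.18. Vldlr, a lipoprotein receptor, and Stc2, a secreted glycoprotein, were measured almost wholly in the WT ER libraries. Vldlr stood at 0.0182 and 0 RPKM in the ATF4-/- ER libraries and at 11.5 and 12.5 RPKM in the WT ER libraries, and Stc2 at 0 and 0.0753 RPKM in the ATF4-/- ER libraries and at 5.27 and 4.81 RPKM in the WT ER libraries. Each was at or near 0 in the ATF4-/- libraries and at 0 in both WT cytosol libraries. The 2 effectors that did not pass were Atf3 (-0.17 ± 0.22, adjusted p = 0.55), another stress-induced bZIP factor, and Eif4ebp1 (-0.07 ± 0.13, adjusted p = 0.68), an inhibitor of cap-dependent translation.

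Enzymes of amino acid synthesis were lower in part. Of 15 tested, 9 were lower (8 after scaling), 1 was higher and 5 did not pass, with a median of -0.76. Asns, asparagine synthetase, stood at 13.8, 19.8, 19.6 and 25.6 RPKM in the ATF4-/- libraries and at 34.97, 59.5, 98.6 and 126 RPKM in the WT libraries. Psph, the last enzyme of serine synthesis, stood at 8.88, 11.1, 10.2 and 14.4 RPKM in the ATF4-/- libraries and at 26.8, 27.5, 48.4 and 89.3 RPKM in the WT libraries. Aldh1l2, a mitochondrial folate enzyme, stood at 0.117, 0.266, 0.0197 and 0 RPKM in the ATF4-/- libraries and at 9.75, 8.19, 5.91 and 9.601 RPKM in the WT libraries. Neither fraction showed any overlap of the genotypes for these genes, and Aldh1l2 came close to 0 in ATF4-/- cells. The changes were -1.84 ± 0.21, adjusted p = 0.00018 for Asns, -1.86 ± 0.21, adjusted p = 0.00016 for Psph and -3.07 ± 0.17, adjusted p = 4e-06 for Aldh1l2. Cth, which makes cysteine from cystathionine, changed by -1.85, Pck2, a mitochondrial PEP carboxykinase, by -2.24, and Pycr1, a proline synthesis enzyme, by -1.36. The first 2 enzymes of serine synthesis stood apart from Psph: Phgdh gave -0.26 ± 0.18, adjusted p = 0.25 and Psat1 -0.24 ± 0.15, adjusted p = 0.21. Shmt2, which passes a carbon from serine to folate, gave -0.03 ± 0.23, adjusted p = 0.93. Got1, the cytosolic aspartate aminotransferase, was higher in every ATF4-/- library, at 53.2, 62.1, 97.1 and 89.4 RPKM in the ATF4-/- libraries and at 21.9, 16.05, 33.3 and 34.02 RPKM in the WT libraries (1.504 ± 0.15, adjusted p = 8.4e-05).

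**Figure D2:**
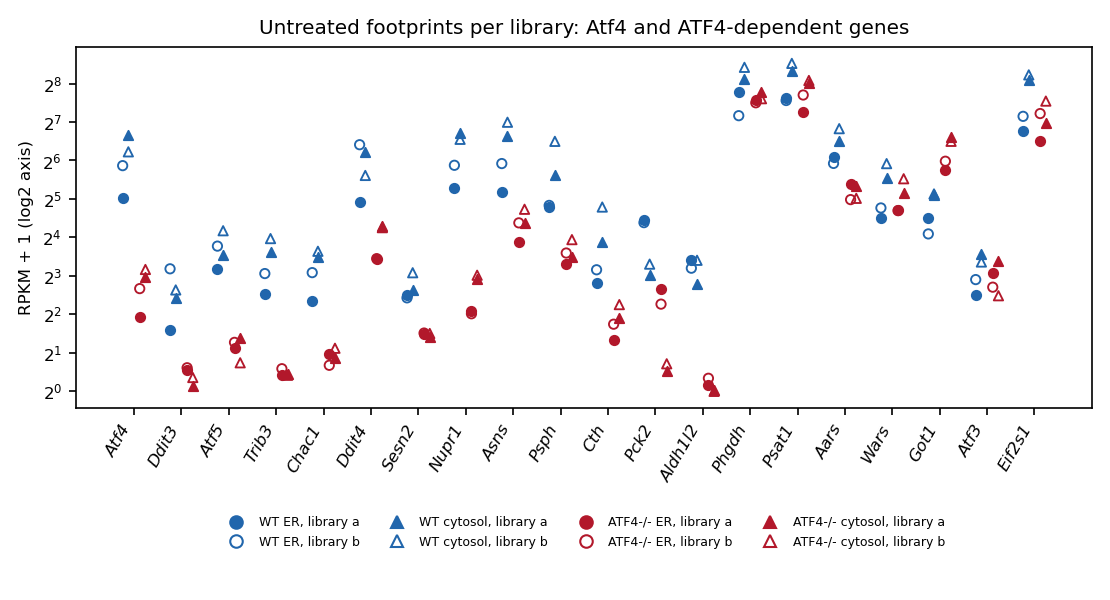
Footprint level (RPKM + 1, log2 axis) of Atf4, of genes from the amino acid synthesis, tRNA synthetase and ATF4-CHOP effector lists, and of Eif2s1. Each point is 1 of the 8 untreated libraries, blue for WT and red for ATF4-/-, circles for ER and triangles for cytosol, filled for library a. Got1 was higher in ATF4-/- cells, and Atf3, Phgdh, Psat1 and Eif2s1 did not pass the test. Nupr1, Trib3, Chac1, Asns and Psph lie lower in all ATF4-/- libraries than in all WT libraries.

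Among amino acid transporters 4 of 10 tested were lower, 1 was higher and 5 did not pass, with a median of -0.16. Both shares were near those of all tested genes, 38.4% lower and 13.1% higher, whose median was -0.28. With voom 1 transporter was lower and 2 were higher, and in the fit of all footprint libraries 2 were lower and 0 higher. Without ATF4-/- ER library b the split was 2 lower and 2 higher, and without ATF4-/- ER library a, ATF4-/- cytosol library a, WT ER library a or WT cytosol library a 0 were higher. Slc7a11, the cystine importer, stood at 0.0307 and 0.0444 RPKM in the ATF4-/- ER libraries and at 5.24 and 10.1 RPKM in the WT ER libraries and was at 0 in all 4 cytosol libraries, an ER change of -3.01 ± 0.26, adjusted p = 7.5e-05. Its totals stayed below the minimum of 10 RPKM. Slc7a1, an arginine and lysine importer, changed by -0.60 ± 0.15, adjusted p = 0.0084, and Slc3a2, the heavy chain shared by several transporters, lay just under the threshold (-0.41 ± 0.16, adjusted p = 0.05 after rounding; 0.51 after scaling). Slc7a5, which pairs with it to import leucine, did not pass (0.29 ± 0.21, adjusted p = 0.27). The transporter that rose was Slc7a6 (0.61 ± 0.18, adjusted p = 0.018).

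The enzymes that charge tRNAs split in both directions. Of 18 tested, 11 were lower, 4 were higher and 3 did not pass, with a median of -0.64; after scaling 7 were lower and 5 higher. Sars, seryl-tRNA synthetase, stood at 41.6, 48.6, 77.3 and 89.8 RPKM in the ATF4-/- libraries and at 79.7, 98.1, 213 and 204 RPKM in the WT libraries, and its genotypes did not overlap within a fraction (-1.14 ± 0.14, adjusted p = 0.00029). Cars, Aars and Iars, for cysteine, alanine and isoleucine, changed by -1.34, -1.16 and -0.99. The 4 that rose were Vars (1.105), Kars (0.66), Rars (0.60) and Hars (0.49). Of 13 genes for eIF2, its exchange factor eIF2B, its kinases and its phosphatase subunits, 3 were lower, 1 was higher and 9 did not pass, against 2 lower and 3 higher after scaling. Before scaling their share lower was under the 38.4% of all tested genes. The higher one was Eif2b2, an eIF2B subunit (1.21 ± 0.15, adjusted p = 0.00022), joined by another gene without ATF4-/- ER library a, with voom and in the fit of all footprint libraries. The lower ones were Eif2ak2, the interferon-inducible kinase PKR (-2.21 ± 0.31, adjusted p = 0.00047), Ppp1r15a, the stress-induced phosphatase subunit GADD34 (-1.01 ± 0.16, adjusted p = 0.0011), and Eif2s2 (-0.64 ± 0.18, adjusted p = 0.016, lost after scaling).

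Secreted inflammatory proteins and NF-kB genes were lower, as they were after scaling. Of 18 tested genes of that list, 17 were lower, 0 were higher and 1 did not pass (Cxcl12, 0.56 ± 0.52, adjusted p = 0.39), with a median of -2.72. No gene was higher at an unadjusted p under 0.05 in limma, nor with voom, and 1 was higher without WT cytosol library b. Ccl20 and Lcn2, at 0 in all ATF4-/- libraries, stayed on the same side of the median when set to 3 counts over the 4 libraries, so that the median is also -2.72 with them at that bound. Cxcl5, a neutrophil chemokine, had the largest change of the genes named here and stood at 1.16, 0.505, 0.137 and 0 RPKM in the ATF4-/- libraries and at 1642, 3226, 68.3 and 78.4 RPKM in the WT libraries. Cxcl1, a related chemokine, stood at 3.83, 1.16, 0 and 0.247 RPKM in the ATF4-/- libraries and at 223, 443, 54.6 and 56.1 RPKM in the WT libraries. Saa3, an acute phase protein, stood at 0.126, 0, 0.296 and 0 RPKM in the ATF4-/- libraries and at 332, 936, 18.2 and 42.4 RPKM in the WT libraries. In WT the footprints of these genes were found mainly in the ER libraries, and every ATF4-/- library was below 5 RPKM for each gene. The changes were -8.22 ± 0.23, adjusted p = 3.4e-07, -6.13 ± 0.29, adjusted p = 1.7e-06 and -6.85 ± 0.35, adjusted p = 2.3e-06 in that order. Ccl20, another chemokine, and Lcn2, an iron-binding acute phase protein, reached 277 and 266 RPKM in WT ER library b; both passed the test but fell outside the 7312 genes, and no fold is given against 0.

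Ccl2, a monocyte chemokine, remained well measured in both genotypes, at 126, 118, 2.08 and 2.57 RPKM in the ATF4-/- libraries and at 1566, 2329, 29.6 and 37.5 RPKM in the WT libraries (-3.66 ± 0.17, adjusted p = 1.7e-06). Its genotypes were apart within each fraction, and the pooled totals were 1981 RPKM in WT, 125 RPKM in ATF4-/- and 178 RPKM in S51A cells. Nfkbia, which encodes the inhibitor that NF-kB induces to limit itself, stood at 8.33, 8.87, 17.1 and 18.7 RPKM in the ATF4-/- libraries and at 76.8, 89.9, 164 and 120.0 RPKM in the WT libraries (-3.02 ± 0.15, adjusted p = 2.3e-06). Its mean level was 8.504-fold lower, and the genotypes were apart in both fractions. Nfkb1 and Relb, subunits of NF-kB, changed by -1.34 and -1.34, and Il6 by -2.41. The 12 genes with the lowest change that met the rule for naming also held Ppbp, a chemokine (-6.99), Tslp, a cytokine (-5.29), Il1rn, the interleukin 1 receptor antagonist (-5.91), and Il1rl1, the interleukin 33 receptor (-4.83). Tslp stood at 0.11, 0, 0.129 and 0 RPKM in the ATF4-/- libraries and at 46.1, 138, 28.7 and 14.1 RPKM in the WT libraries. Its WT ER libraries were the highest, and every ATF4-/- library was below 1 RPKM. Rtp4, Ifit3 and Phf11d were 3 more of the 12 (-5.23, -5.01 and -4.77), as was Rab32, a small GTPase of membrane traffic (-4.73 ± 0.26, adjusted p = 4e-06).

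Interferon-stimulated genes were lower too, in 20 of 22 tested genes with 0 higher and 2 not passed (Ifitm2 and Ifitm3), at a median of -3.01. After scaling 18 were lower, and no gene was higher at an unadjusted p under 0.05 in limma, nor with voom. Ifit1, which binds uncapped or unmethylated viral RNA, stood at 0.698, 0.626, 1.06 and 0.669 RPKM in the ATF4-/- libraries and at 5.495, 81.9, 112 and 48.2 RPKM in the WT libraries. Isg15, a ubiquitin-like modifier, stood at 9.25, 10.1, 22.3 and 16.97 RPKM in the ATF4-/- libraries and at 73.2, 394, 598 and 471 RPKM in the WT libraries. All 4 ATF4-/- libraries lay below all 4 WT libraries for both genes, but WT ER library a was far below the other 3 WT libraries. The changes were -4.57 ± 0.66, adjusted p = 0.00055 and -4.35 ± 0.43, adjusted p = 8.3e-05 in the same order. Ddx58, the RNA sensor RIG-I, changed by -4.09, Usp18, which removes Isg15 from proteins, by -4.93, and B2m, the light chain of class I molecules, by -1.095.

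WT ER library a stood apart in these genes. It was below the other 3 WT libraries in 16 of the 22, against 3952 of 9330 genes in all, and WT ER library b exceeded it by a median of 3.45-fold, against 1.06-fold over all genes. Summed over 25 list genes, the level was 2383 RPKM in WT ER library a and 7023 RPKM in b, 1976 and 1523 RPKM in the WT cytosol libraries, 2126 and 2086 RPKM in the ATF4-/- ER libraries and 395 and 388 RPKM in the ATF4-/- cytosol libraries. Without WT ER library a 21 of 22 were lower, and without ATF4-/- ER library b 17. WT pairs were also far apart early in thapsigargin, where the larger sum exceeded the smaller by 2.78-fold in WT cytosol at 0.5 h and by 4.00-fold at 1 h. At 0.5 h the WT ER sums, 1268 and 1313 RPKM, were below the ATF4-/- ER sums of 1600 and 2027 RPKM. The cause of the spread among WT libraries was not tested. For the NF-kB list WT ER library b exceeded a by a median of 1.45-fold, and the larger list sum of a WT pair exceeded the smaller by 1.75-fold in the untreated ER and by 3.04-fold in the cytosol at 0.5 h.

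**Figure D3:**
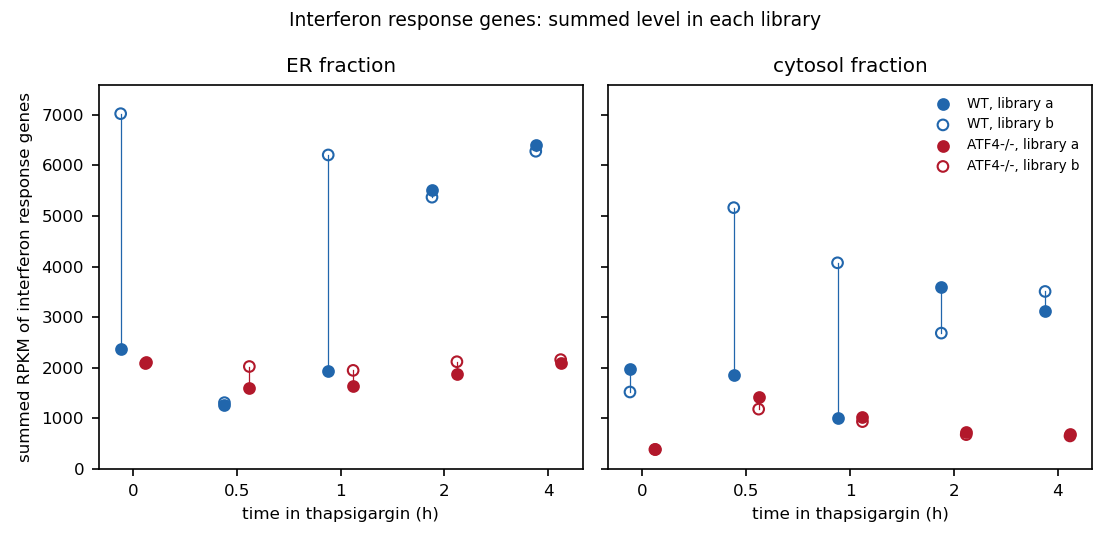
Summed footprint level (RPKM) of 25 interferon response genes in each ATF4-/- and WT library at each time of thapsigargin, by fraction; each point is 1 library. A line joins the libraries of a pair; WT pairs lie up to 4.00-fold apart at 0 to 1 h and closer at 2 and 4 h, and at 0.5 h the WT ER pair lies below the ATF4-/- ER pair.

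Secreted matrix proteins were largely lower, seen in the ER fraction where their mRNAs are translated. Of 27 matrix glycoproteins, proteoglycans and their proteases tested, 21 were lower, 1 was higher and 5 did not pass, with a median of -1.27. The number lower was 17 after scaling or with voom and 14 in the fit of all footprint libraries. Lum, Mfap2, Mfap5 and Igfbp3 were at 0 in all ATF4-/- libraries and at a bound of 3 counts stayed on the same side of the median. In the ER fraction alone the median was -2.05, against -0.21 for all genes in that fraction. Fbln5, an elastic fibre protein, stood at 13.8 and 14.1 RPKM in the ATF4-/- ER libraries and at 251 and 352 RPKM in the WT ER libraries (ER change -4.32 ± 0.25, adjusted p = 7.5e-06). Postn, a matricellular protein of healing tissue, stood at 0.038 and 0 RPKM in the ATF4-/- ER libraries and at 28.3 and 54.2 RPKM in the WT ER libraries (ER change -5.30 ± 0.32, adjusted p = 8.9e-06). Mmp3, a matrix protease, stood at 0.354 and 0.14 RPKM in the ATF4-/- ER libraries and at 83.1 and 180.4 RPKM in the WT ER libraries (ER change -6.64 ± 0.48, adjusted p = 2.5e-05). No ATF4-/- ER library reached the lower WT ER library for any of these. Dcn, a proteoglycan, was more spread in WT, at 9.65 and 5.98 RPKM in the ATF4-/- ER libraries and at 60.2 and 269.6 RPKM in the WT ER libraries (ER change -3.90 ± 0.63, adjusted p = 0.0023). Fn1, fibronectin, stood at 67.4 and 23.2 RPKM in the ATF4-/- ER libraries and at 338 and 162 RPKM in the WT ER libraries (ER change -2.53 ± 0.52, adjusted p = 0.0073), and its averaged call held in 5 of 8 fits that each left out 1 library. Sparc, Bgn and Mmp2, also of this list, gave averaged changes of -0.09, 0.14 and 0.17 and did not pass. Lgals1, galectin 1, which leaves the cell without an ER signal, was the gene that rose (0.83 ± 0.17, adjusted p = 0.0034).

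Among collagens and the enzymes that process them 11 of 21 were lower, 0 higher and 10 not passed, at a median of -0.54. After scaling 7 were lower and 2 higher, with voom 6 were lower, and in the fit of all footprint libraries 5. Without ATF4-/- ER library b, ATF4-/- cytosol library b or WT cytosol library b, 7 were lower, and 1 was higher without ATF4-/- ER library a, ATF4-/- ER library b or WT cytosol library b. In all, 1 gene was higher at an unadjusted p under 0.05 in limma, and 2 were higher with voom. Col5a2, a fibrillar collagen chain, stood at 44.9 and 21.1 RPKM in the ATF4-/- ER libraries and at 425 and 602 RPKM in the WT ER libraries (ER change -3.99 ± 0.37, adjusted p = 9.6e-05). Lox, which cross-links collagen, stood at 113 and 85.7 RPKM in the ATF4-/- ER libraries and at 428 and 1177 RPKM in the WT ER libraries (-2.84 ± 0.41, adjusted p = 0.0013 in the ER). P4ha1 and P4ha2, prolyl hydroxylase subunits, changed by -1.08 and -1.06 on average over fractions. Of the type I collagen chains, Col1a1 had an ER change of -1.35 ± 0.31, adjusted p = 0.012 (its averaged call was lost after scaling and with voom) and Col1a2 one of -0.11 ± 0.24, adjusted p = 0.76, while its averaged change passed as higher after scaling and with voom.

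Contractile genes changed strongly in both directions. Of 16 tested, 10 were lower (9 after scaling), 4 were higher and 2 did not pass, with a median of -1.32. Acta2, smooth muscle actin, stood at 193, 161, 308 and 267 RPKM in the ATF4-/- libraries and at 508, 489.7, 921 and 1502 RPKM in the WT libraries (-1.76 ± 0.18, adjusted p = 0.00011). Cnn1, calponin, stood at 0.518, 0.15, 0.794 and 0.561 RPKM in the ATF4-/- libraries and at 10.1, 16.5, 30.03 and 39.4 RPKM in the WT libraries (-3.90 ± 0.19, adjusted p = 2.3e-06). Tpm1, a tropomyosin, stood at 339.5, 513, 563 and 620.0 RPKM in the ATF4-/- libraries and at 1019, 1161, 2208 and 2719 RPKM in the WT libraries (-1.71 ± 0.18, adjusted p = 0.00011). The genotypes did not overlap in any of these. The pooled totals of Acta2 were 1710.0 RPKM in WT, 465 RPKM in ATF4-/- and 5934 RPKM in S51A cells. The genes that rose were Ankrd1, a YAP and SRF target (at 117, 163, 175 and 186 RPKM in the ATF4-/- libraries and at 11.5, 7.76, 9.51 and 13.99 RPKM in the WT libraries, 3.79 ± 0.19, adjusted p = 2.3e-06), Actg2, enteric smooth muscle actin (1.86 ± 0.23, adjusted p = 0.00026), Cyr61, a matricellular YAP target (1.29 ± 0.15, adjusted p = 0.00016), and Zyx, a focal adhesion protein (0.60 ± 0.14, adjusted p = 0.007).

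Growth factor and cytokine receptors were lower in 9 of 14 tested, higher in 1 and not called in 4, with 2 higher after scaling or without WT ER library a. With voom 5 were lower and 3 higher. Pdgfra, a PDGF receptor, stood at 0.722 and 0.84 RPKM in the ATF4-/- ER libraries and at 16.7 and 28.9 RPKM in the WT ER libraries, and Pdgfrb at 17.6 and 10.97 RPKM in the ATF4-/- ER libraries and at 14.9 and 26.8 RPKM in the WT ER libraries. The ER changes were -3.69 ± 0.28, adjusted p = 3.6e-05 and -0.50 ± 0.35, adjusted p = 0.31, and the genotypes were apart for Pdgfra and overlapped for Pdgfrb. Il6st, the shared receptor of the interleukin 6 family, fell 11.4-fold in mean level (-2.49 ± 0.20, adjusted p = 2.8e-05), and Lifr, its partner, rose (0.65 ± 0.16, adjusted p = 0.0092). Of 11 integrins and adhesion proteins, 3 were lower, 2 were higher and 6 did not pass, but after scaling, as with voom, 1 was lower and 3 were higher. Without ATF4-/- ER library b 1 was lower. Vcam1, which binds leukocyte integrins, changed by -1.61 ± 0.16, adjusted p = 9e-05, and Ncam1, a neural cell adhesion molecule, by 0.73 ± 0.14, adjusted p = 0.003.

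Immediate early genes, which growth factor and MAP kinase signals switch on within minutes, had the most higher calls of the 29 lists before scaling. Of 22 tested, 13 were higher (15 after scaling), 4 were lower and 5 did not pass, with a median of 0.93. Egr1, a zinc finger factor, stood at 88.6, 74.3, 126 and 115 RPKM in the ATF4-/- libraries and at 12.6, 19.1, 21.7 and 18.4 RPKM in the WT libraries (2.42 ± 0.17, adjusted p = 1.2e-05). Ier2 stood at 72.3, 48.3, 175 and 81.2 RPKM in the ATF4-/- libraries and at 14.2, 9.52, 20.7 and 16.5 RPKM in the WT libraries (2.44 ± 0.26, adjusted p = 0.00012). Dusp6, a phosphatase that ERK induces and that switches ERK off, stood at 39.8, 46.8, 37.8 and 38.8 RPKM in the ATF4-/- libraries and at 5.98, 5.36, 5.53 and 3.46 RPKM in the WT libraries (2.80 ± 0.16, adjusted p = 4.8e-06). Each ATF4-/- library was above every WT library, by 5.63-fold, 6.18-fold and 8.03-fold in mean level. Fos changed by 2.61 ± 0.19, adjusted p = 1.6e-05, from WT levels under 1 RPKM. The genes that fell were Fosl2 (-2.03), Klf4 (-1.42), Maff (-1.02) and Jund (-0.88). In S51A cells, compared with the same WT libraries, the pooled totals of Egr1 were 35.9 RPKM in WT, 202 RPKM in ATF4-/- and 520.2 RPKM in S51A cells.

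Translation factors whose mRNAs carry a 5′ terminal oligopyrimidine tract, the mark of mTORC1-controlled messages, were higher in 9 of 14 tested (11 after scaling), lower in 0, with a median of 0.72. Eef1b2, a guanine exchange factor of elongation, stood at 788, 1001, 2079 and 1878 RPKM in the ATF4-/- libraries and at 542, 322, 332 and 465 RPKM in the WT libraries (1.71 ± 0.21, adjusted p = 0.00025). Gnb2l1, the ribosomal scaffold RACK1, stood at 1425, 1390.4, 2459 and 2947 RPKM in the ATF4-/- libraries and at 594, 397, 812 and 1026 RPKM in the WT libraries (1.55 ± 0.18, adjusted p = 0.0002). Both were apart between genotypes in each fraction. Pabpc1, the poly(A)-binding protein, gave -0.49 ± 0.35, adjusted p = 0.26. None was lower at an unadjusted p under 0.05 in limma, nor with voom. As single libraries were left out, the list median ran from 0.57 to 0.79. The WT ER libraries were apart in these genes, with a median log2 of library a against b of 0.57, where it was -0.08 over all genes tested. At 1, 2 and 4 h of thapsigargin 6, 10 and 8 of 14 were higher and 1, 3 and 2 lower. Nuclear-encoded oxidative phosphorylation subunits were higher in 12 of 32 tested, lower in 0, at a median of 0.21, and in 19 after scaling. In limma 1 was lower at an unadjusted p under 0.05 and, adjusted, 1 without ATF4-/- ER library a or ATF4-/- cytosol library b, and 0 with voom. Ndufa9, of complex I, stood at 91.98, 66.4, 69.1 and 60.02 RPKM in the ATF4-/- libraries and at 42.3, 35.6, 31.6 and 39.4 RPKM in the WT libraries (0.92 ± 0.16, adjusted p = 0.0016), and Atp5b, of the ATP synthase, changed by 0.91 ± 0.18, adjusted p = 0.0026.

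Cytosolic and mitochondrial heat shock chaperones were higher in 6 of 18, lower in 3 and not called in 9, against 9 higher and 2 lower after scaling. Hspb1, a small heat shock protein, stood at 75.5, 46.2, 129 and 97.2 RPKM in the ATF4-/- libraries and at 7.16, 4.73, 15.7 and 9.79 RPKM in the WT libraries (3.10 ± 0.23, adjusted p = 1.6e-05). Hspd1, the mitochondrial chaperonin, and Hsp90ab1 changed by 0.90 and 0.89. Hspa1a and Hspa1b, the stress-inducible HSP70 genes, both gave lower values (-1.86 and -1.90), but they are near-identical copies whose reads may be split, so they are 1 observation.

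The 12 genes with the highest change that met the rule for naming had varied roles. Crabp1, a retinoic acid binding protein, stood at 48.3, 58.7, 81.7 and 127 RPKM in the ATF4-/- libraries and at 1.83, 1.803, 3.61 and 2.66 RPKM in the WT libraries (4.46 ± 0.18, adjusted p = 9.9e-07). Parvb, a focal adhesion protein, stood at 22.9, 21.5, 32.9 and 36.9 RPKM in the ATF4-/- libraries and at 0.828, 1.02, 0 and 1.403 RPKM in the WT libraries (4.06 ± 0.25, adjusted p = 6.3e-06). Both were below 4 RPKM in every WT library. Their pooled S51A totals differed, with 1.59 RPKM for Crabp1 and 16.8 RPKM for Parvb. Pklr, the liver and red cell pyruvate kinase, changed by 2.94 ± 0.28, adjusted p = 7.6e-05, Dusp9, a MAP kinase phosphatase, by 2.97 ± 0.17, adjusted p = 4.1e-06, Ndufa4l2, a hypoxia-inducible mitochondrial protein, by 3.02 ± 0.39, adjusted p = 0.0003, and Igfbp6, a secreted IGF binding protein, by 3.09 ± 0.16, adjusted p = 2.6e-06.

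ER folding genes moved little when both fractions were averaged, and more in the ER fraction. Of 19 ER chaperones and folding enzymes, 5 were lower, a smaller share than the 38.4% of all tested genes. Of these 19, 1 was higher and 13 did not pass, and the median was -0.19. After scaling 3 were lower, with voom 2, and in the fit of all footprint libraries 1 was lower and 0 higher. The number lower was 2 without ATF4-/- cytosol library a and 3 without ATF4-/- ER library a, ATF4-/- cytosol library b, WT ER library b or WT cytosol library a, and 2 were higher without WT cytosol library b. In the ER fraction alone 6 were lower and 0 higher, at a median of -0.48, against -0.21 for all genes in that fraction. In the cytosol the list median was 0.16. Summed over the list, levels were 134 to 152 RPKM in cytosol libraries and 4995 to 7118 RPKM in ER libraries. Hspa5, the chaperone BiP, stood at 369.9 and 442 RPKM in the ATF4-/- ER libraries and at 647 and 775 RPKM in the WT ER libraries (ER change -0.81 ± 0.26, adjusted p = 0.039; averaged over fractions -0.37 ± 0.18, adjusted p = 0.12). Hsp90b1, the chaperone GRP94, stood at 447 and 549 RPKM in the ATF4-/- ER libraries and at 851 and 978 RPKM in the WT ER libraries (ER change -0.88 ± 0.29, adjusted p = 0.047). Both lay below WT in the ER and overlapped in the cytosol. Calr, calreticulin, gave an ER change of -0.34 ± 0.29, adjusted p = 0.39, and Canx, calnexin, was the gene that rose on average (0.54 ± 0.14, adjusted p = 0.0099). Ero1l, the oxidase that recharges PDI, was lower (-0.86 ± 0.16, adjusted p = 0.0019). For ER-associated degradation 11 of 14 were lower, 0 were higher and 3 did not pass, at a median of -0.55, but 3 were lower and 1 higher after scaling, 4 were lower with voom and 5 in the fit of all footprint libraries. The count fell to 5 without ATF4-/- cytosol library a, to 6 without ATF4-/- ER library b or WT ER library a and to 7 without ATF4-/- cytosol library b, where 1 was higher. With voom 1 was higher, as was 1 at an unadjusted p under 0.05 in limma. Herpud1, a ubiquitin-like ER membrane protein that is also an ATF4-CHOP effector, changed by -1.63 ± 0.17, adjusted p = 0.0001.

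Redox and metabolic lists were mixed. Of 19 Nrf2 targets and glutathione genes, 5 were higher, 5 were lower and 9 did not pass, while after scaling 7 were higher and 4 lower, and without ATF4-/- cytosol library a 3 were higher. Srxn1, sulfiredoxin, Fth1 and Ftl1, the ferritin chains, changed by 1.096, 0.97 and 1.04, and Hmox1, heme oxygenase 1, by -1.41. Of 16 glycolysis genes, 7 were lower, 1 was higher and 8 did not pass, with 0 higher without ATF4-/- cytosol library a. After scaling 5 were lower and 4 higher, and the share lower before scaling was near the 38.4% of all genes. Pdk1, which keeps pyruvate out of mitochondria, stood at 0.0709, 0.154, 0.0836 and 0.11 RPKM in the ATF4-/- libraries and at 5.98, 10.7, 18.3 and 12.3 RPKM in the WT libraries, far apart in all libraries (-3.45 ± 0.20, adjusted p = 4.8e-06). Ldha, lactate dehydrogenase, and Slc2a1, the glucose transporter, changed by -1.12 and -1.29. Of 23 cholesterol and fatty acid synthesis genes, 2 were lower, 0 were higher and 21 did not pass, but after scaling 0 were lower and 5 higher. Idi1, an isomerase of isoprenoid synthesis, was among the lower ones (-0.97 ± 0.34, adjusted p = 0.04), a call lost after scaling. The number lower was 0 without ATF4-/- ER library b, ATF4-/- cytosol library a or WT cytosol library a, 3 without WT cytosol library b and 1 without any other library. The number higher was 3 without WT cytosol library a and 1 without ATF4-/- ER library b or WT ER library b. It was 3 with voom and 0 at an unadjusted p under 0.05 in limma. Of 22 lysosome and autophagy genes, 8 were lower, 1 was higher and 13 did not pass, with 5 lower and 2 higher after scaling, 4 lower without ATF4-/- ER library b and 5 without ATF4-/- cytosol library a or WT ER library b, and 2 higher without WT cytosol library b. Before scaling their share lower was close to the 38.4% of all genes. Map1lc3a, an autophagosome protein, changed by -1.99 ± 0.22, adjusted p = 0.00015.

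Targets of p53 were lower in 11 of 15 tested (9 after scaling), higher in 0, at a median of -1.26, and none was higher at an unadjusted p under 0.05 in limma or with voom. Cdkn1a, the cell cycle inhibitor p21, stood at 5.89, 3.92, 7.74 and 6.87 RPKM in the ATF4-/- libraries and at 31.4, 34.97, 36.5 and 66.6 RPKM in the WT libraries (-2.58 ± 0.21, adjusted p = 2.8e-05). Pmaip1, the death protein NOXA, stood at 3.12, 2.801, 5.78 and 6.91 RPKM in the ATF4-/- libraries and at 24.6, 38.9, 42.5 and 49.5 RPKM in the WT libraries (-2.85 ± 0.17, adjusted p = 6.2e-06). Fas, the death receptor, changed by -3.33 ± 0.31, adjusted p = 6.2e-05. The genotypes were apart for all 3, while Trp53 itself was higher (0.51 ± 0.14, adjusted p = 0.014) and Bax, a pore-forming death protein, gave 0.26 ± 0.21, adjusted p = 0.32. Of 17 mitotic genes, 5 were lower, 1 was higher (Kif20a, a mitotic kinesin, which passed in 1 of the 8 fits that left out a library) and 11 did not pass, and of 18 S phase genes 4 were lower, 1 was higher and 13 did not pass, with 2 higher without WT ER library b. Before scaling, the share lower of each of these 2 lists was under the 38.4% of all tested genes. After scaling both balances turned, to 3 lower and 6 higher for mitotic genes and 0 lower and 6 higher for S phase genes. Mki67, a proliferation marker, changed by -2.16 ± 0.33, adjusted p = 0.00076, and Cdt1, a replication licensing factor, by 1.11 ± 0.14, adjusted p = 0.00029.

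Genes that keep a record of where in the body a cell comes from differed between the lines. Of 15 tested Hox and positional genes, 8 were lower, 6 were higher and 1 did not pass. Hoxd13, active in the distal limb, stood at 0 in all 4 ATF4-/- libraries and 7.24, 10.4, 19.4 and 21.1 RPKM in the WT libraries. Tbx4, a hindlimb factor, stood at 0.0341, 0, 0 and 0 RPKM in the ATF4-/- libraries and at 6.66, 7.26, 12.3 and 9.23 RPKM in the WT libraries (-3.26 ± 0.14, adjusted p = 1.3e-06). Hoxb7, a trunk gene, stood at 10.1, 5.85, 20.95 and 8.44 RPKM in the ATF4-/- libraries and at 0.348, 0, 0 and 0 RPKM in the WT libraries (3.38 ± 0.27, adjusted p = 2.9e-05). Hoxb6, Hoxb8 and Hoxb9 were likewise higher, by 1.601, 2.59 and 1.92. The pooled S51A total of Hoxb7 was 39.9 RPKM. Among sex-linked genes 1 of 5 tested was higher and 2 were lower. Ddx3y, a Y-linked RNA helicase with a close X-linked copy that may take some of its reads, stood at 15.4, 9.53, 15.01 and 12.4 RPKM in the ATF4-/- libraries and at 0.536, 0.942, 1.51 and 1.11 RPKM in the WT libraries (2.80 ± 0.18, adjusted p = 9.7e-06), while 6 other Y-linked genes of the list stayed below 1 RPKM in all 8 libraries. Of 11 imprinted genes 5 were lower, 2 were higher (Grb10 and Snrpn) and 4 did not pass, with 4 higher after scaling; Dlk1, a paternally expressed membrane protein, had an ER change of -2.61 ± 0.24, adjusted p = 8.8e-05. Of 9 immortalisation genes 2 were lower (Rb1 and Mdm2), 2 were higher (Trp53 and Ccnd1, cyclin D1, 1.53) and 5 did not pass, with 1 higher without WT cytosol library a and 3 after scaling.

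Some fibroblast markers were at high levels in both genotypes, while most of the list was lower in ATF4-/- cells. Vim, vimentin, stood at 1402, 938, 1365 and 1270.3 RPKM in the ATF4-/- libraries and at 1595, 788, 1162 and 1222 RPKM in the WT libraries. Col1a2, a chain of type I collagen, stood at 233 and 192 RPKM in the ATF4-/- ER libraries and at 201 and 259.9 RPKM in the WT ER libraries. Both overlapped between genotypes. Of 13 fibroblast markers 8 were lower and 5 did not pass (7 lower and 1 higher after scaling), while Lum, a proteoglycan, was at 0 in ATF4-/- cells. Of 5 tested muscle and myofibroblast markers 3 were lower and 2 higher (1 higher without ATF4-/- ER library a, ATF4-/- cytosol library b, WT ER library b or WT cytosol library a), and the muscle regulators Myod1 and Myog were at 0 in all libraries. Of 7 endothelial markers none reached a mean of 1 RPKM, and Pecam1, Emcn and Cldn5 were at 0 in all libraries. Among macrophage markers only Cd14 reached it; it did not pass (-0.52 ± 0.22, adjusted p = 0.074) but was lower without ATF4-/- cytosol library a, and Itgam and Emr1 were at 0. Of 8 epithelial markers only Krt19 did, a keratin also found outside epithelia, at 20.7, 15.2, 31.4 and 26.8 RPKM in the ATF4-/- libraries and at 4.25, 2.46, 2.77 and 2.36 RPKM in the WT libraries (2.61 ± 0.18, adjusted p = 1.3e-05), with Epcam, Cdh1 and Krt18 below 1 RPKM and Cldn4 at 0. The summed epithelial list ran from 16.6 to 32.7 RPKM in ATF4-/- libraries and from 2.36 to 4.98 RPKM in WT. Among neural markers Map2, a microtubule protein, was lower (-3.43 ± 0.13, adjusted p = 9.3e-07), Tubb3 higher (called in 2 of the 8 fits that each left out 1 library) and Nes not called, with Snap25 at 0. The neural sum ran from 40.7 to 55.0 RPKM in ATF4-/- and from 42.5 to 60.4 RPKM in WT libraries. Fabp4, a fatty acid binding protein and the tested gene among adipocyte markers, was lower (-3.04 ± 0.22, adjusted p = 1.5e-05), with Adipoq and Plin1 at 0 and the adipocyte sum between 0.299 and 1.19 RPKM in ATF4-/- and between 7.68 and 12.7 RPKM in WT libraries. Of bone and cartilage genes Sox9 and Runx2 were higher (1.34 and 0.52) and Acan lower, Runx2 only without ATF4-/- ER library b or WT ER library a among the fits that left out 1 library, with Bglap and Ibsp at 0. The part of any other cell type in the differences was not tested. Gapdh and Actb, often used as references, gave 0.26 ± 0.17, adjusted p = 0.22 and 0.23 ± 0.18, adjusted p = 0.31, and both passed as higher after scaling (adjusted p = 0.025 and 0.04).

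The genotype difference depended on the fraction for some genes. In the ER libraries 894 of 9330 genes (9.58%) were higher and 2095 (22.5%) lower, and in the cytosol libraries 702 (7.52%) were higher and 2821 (30.2%) lower. The ER difference itself differed from the cytosol difference for 320 genes (3.43%), of which 188 were genes of the comparison. The difference was more negative in the ER for 271 (2.90%) and less negative for 49 (0.525%). Of the 1376 tested genes that the table flags as ER-targeted, 156 had a more negative ER difference and 13 a less negative one, and their median change was -0.46 in the ER and 0.00 in the cytosol. For the 5350 unflagged genes the medians were -0.09 and -0.43. In the deposited ER share of footprints, flagged genes stood at a median of 94.0% in WT, 94.7% in ATF4-/- and 91.6% in S51A cells, and unflagged genes at 37.5%, 43.6% and 36.7%. In the same order these medians are over 1218, 1420 and 1445 flagged and 5834, 5848 and 5852 unflagged genes. Genes with no deposited share in a genotype were left out of its median, so the flagged medians are not over the same genes. Flagged genes are near 0 in the cytosol, where a difference of log2(RPKM + 1) is compressed. A fit of the recovered reads with limma's voom weights called 0 genes in this interaction, with 1293 of 9330 at an unadjusted p under 0.05, against 1638 in the fit reported.

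The change also varied with chromosome and with properties of the transcript, described across genes. Relative to the median of all genes, the median log2 change ran from -0.28 on chromosome 3 and -0.25 on X to 0.24 on chromosome 15 and 0.27 on chromosome 19. At 0.5 to 4 h of thapsigargin the same quantity ran from -0.26 to -0.22 on chromosome 3, from -0.24 to -0.18 on X and from 0.36 to 0.42 on chromosome 19. Atf4 lies on chromosome 15, whose median was high. With the genes ordered into 5 bins by GC content, the lowest bin had a median change of -0.52 and the highest -0.11. Those with the longest coding sequences had a median of -0.43 and those with the shortest -0.22. In 5 bins by mean level, the lowest had a median of -0.34 with 7.02% called higher, and the highest -0.02 with 23.8%. After scaling the medians of these 2 bins were -0.18 and 0.28. Copy number was not tested.

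**Figure D4:**
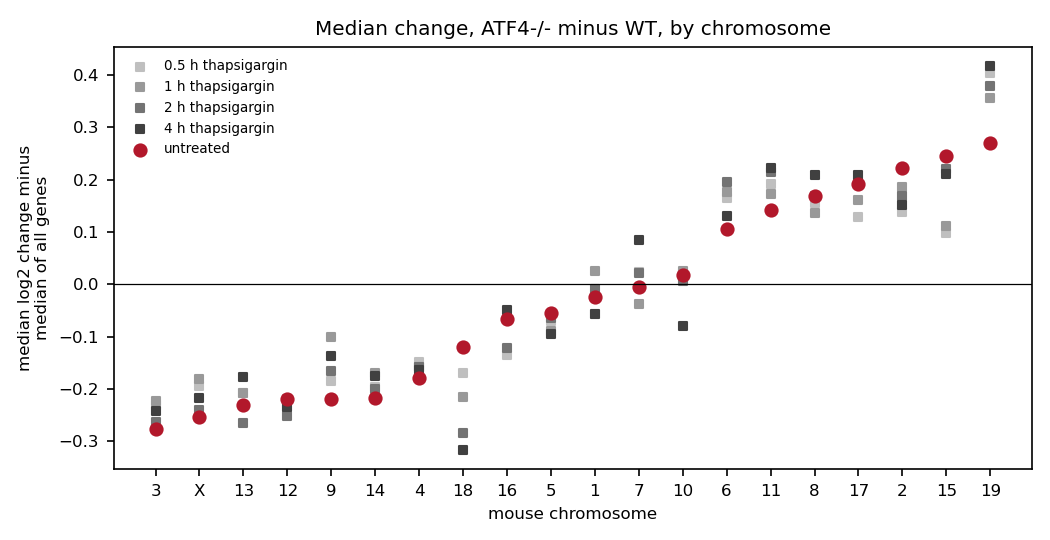
Median log2 change of ATF4-/- against WT per chromosome, relative to the median of all tested genes, for untreated cells and at each time of thapsigargin. Chromosomes 3 and X stay below 0 and chromosome 19 above 0 at every time.

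The same genotypes were compared at 0.5, 1, 2 and 4 h of 1 µM thapsigargin, in libraries that share none with the untreated ones. The genes higher and lower in ATF4-/- were 884 (9.44%) and 2553 (27.2%) of 9369 at 0.5 h, 598 (6.43%) and 1541 (16.6%) of 9299 at 1 h, 1469 (15.7%) and 3899 (41.7%) of 9359 at 2 h and 1596 (17%) and 4122 (43.9%) of 9386 at 4 h. Atf4 changed by -2.74 at 0.5 h, -2.18 at 1 h, -2.29 at 2 h and -1.98 at 4 h. Nupr1 changed by -3.90 at 0.5 h, -2.48 at 1 h, -1.82 at 2 h and -2.21 at 4 h. Both were lower at every time, as was Cxcl5 (-8.24 at 0.5 h, -8.08 at 1 h, -8.77 at 2 h and -8.90 at 4 h). Asns gave -0.90 at 0.5 h, -0.46 at 1 h, -0.57 at 2 h and -0.57 at 4 h, with an adjusted p of 0.18 at 1 h. The effector list had 13, 8, 13 and 16 genes lower at 0.5, 1, 2 and 4 h, the NF-kB list 15, 15, 17 and 17, and the interferon list 14 of 20, 10 of 23, 23 of 24 and 22 of 24. Immediate early genes had a median of -0.43 at 0.5 h, with 6 higher and 6 lower, against 0.93 untreated. At 4 h 9 of 17 ER chaperones were higher and 2 lower, at a median of 0.46. Differences between times were not tested.

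**Figure D5:**
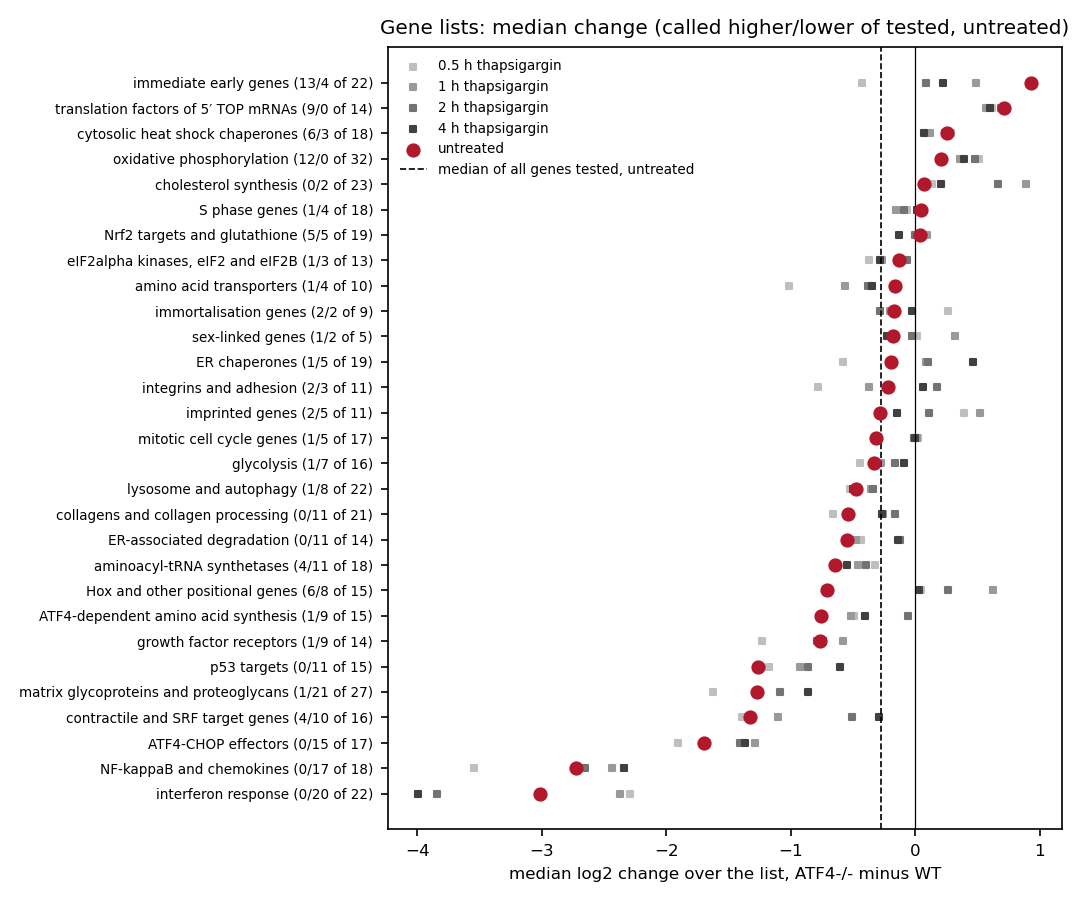
Median log2 change (ATF4-/- against WT) of each gene list in untreated cells and at each time of thapsigargin; each point is the median over the tested genes of 1 list at 1 time, and the line at 0 marks no change. The NF-kB, interferon and effector lists lie below 0 at every time, and the 5′ TOP list above 0.

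S51A cells were compared with the same WT libraries in the study, so only pooled totals are set side by side. Nupr1 totals were 146 RPKM in WT, 9.96 RPKM in ATF4-/- and 78.004 RPKM in S51A cells. Asns totals were 159.8 RPKM in WT, 39.4 RPKM in ATF4-/- and 36.1 RPKM in S51A cells, and Trib3 totals 19.01 RPKM in WT, 0.773 RPKM in ATF4-/- and 0.917 RPKM in S51A cells. Cxcl5 totals were 2507 RPKM in WT, 0.971 RPKM in ATF4-/- and 2.05 RPKM in S51A cells, and Isg15 totals 768 RPKM in WT, 29.3 RPKM in ATF4-/- and 173 RPKM in S51A cells. Eef1b2 totals were 831 RPKM in WT, 2873 RPKM in ATF4-/- and 1591 RPKM in S51A cells.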

How the data were processed

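Footprints were measured by ribosome profiling in ER and cytosol fractions of WT and ATF4-/- MEFs. Adapters were trimmed with cutadapt 1.6 and reads aligned with Bowtie 1.1.1, per the submitters' processing notes. Alignment settings and the genome build used are details not given in the sources used here. The deposited total of a gene pools fractions and replicates and behaves as RPKM; this unit was read from the values. The authors also deposited, as a ratio, the share of the level on the ER, per the file headers. Levels below 4 reads appeared as 0 in the WT libraries.

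Each fraction's level was written as whole reads of 2 libraries, using RefSeq coding lengths that 20224 of 22417 genes (90.2%) had. Of 43084 untreated values 42266 (98.1%) were solved within a relative tolerance of 7e-12, against 1 of 1998 with exchanged lengths. The libraries so recovered carry no replicate number. Read totals of 2161493 to 11099359 set the precision.

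The 9330 genes with a value in all 8 libraries and a mean of at least 1 RPKM were fitted in limma 3.58.1 (R 4.3.3, with trend) on log2(RPKM + 1), which understates changes of low genes. The contrast averaged both fractions, with 4 residual degrees of freedom and Benjamini-Hochberg adjustment over all genes at 0.05. In simulated data for this comparison 200 of 9330 genes were changed, as many up as down and with no overall shift. Of genes changed by 1 on the log2 scale 56% were recovered, and of those changed by 2, 100%. Unchanged genes made up 10.3% of 174 calls, more than the threshold of 0.05 aims at. Far fewer genes were changed than were called in the real data, so these shares do not give its error rate. Recovery was also tested on simulated data, where all values were solved correctly. Libraries of a group differed by more than counting noise, so none was treated as a repeat of another.

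Alternatives were other pseudocounts, filters, median-of-ratios scaling, a fit of all footprint libraries, voom on the recovered reads and leaving out each library. Motifs were searched in RefSeq promoters. Genes named were the 12 highest and 12 lowest with a change of at least 1, adjusted p under 0.05, genotypes apart in each fraction and a mean of at least 20 reads, up to 4 of each of 29 gene lists by smallest p, and all genes of the first 6 lists and of the 8 cell type lists; others were chosen after their values were seen. For genes named by small p or by separation, genotypes that did not overlap follow in part from that naming. The genes described and the lists were chosen with earlier results of these data known. The mRNA levels of untreated ATF4-/- cells were not used here. Some named genes are not reported here.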

Additional observations from a re-analysis of the deposited data

Results flagged for a closer look

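The genotype difference in the ER fraction differed from that in the cytosol fraction, by the interaction term of the limma fit, for 20 genes named above. The values are the ER difference minus the cytosol difference on the log2(RPKM + 1) scale. Among inflammatory genes the value was -4.20 for Cxcl5, -4.37 for Saa3, -3.03 for Ccl20, -2.27 for Ppbp and -1.87 for Il1rl1. Among matrix genes it was -4.99 for Postn, -4.99 for Mmp3, -4.81 for Mfap5, -3.91 for Mfap2, -2.90 for Igfbp3, -2.41 for Fbln5 and -2.32 for Acan. Among receptors, transporters and other membrane proteins it was -3.69 for Vldlr, -3.41 for Pdgfra, -3.01 for Slc7a11, -2.61 for Dlk1, -2.33 for Vcam1 and -1.93 for Il6st. Stc2 gave -2.54, and Igfbp6 was the 1 named gene with a positive value, 2.15. Of these, Slc7a11, Vldlr, Stc2, Dlk1, Igfbp3, Mfap2 and Mfap5 had a cytosol difference of 0, since all 4 of their cytosol libraries were at 0. With voom 0 genes passed this interaction test, and 1293 did at an unadjusted p under 0.05.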

How the results depend on the processing

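The count of 4805 genes past the threshold was 2275 with a minimum mean of 10 RPKM, where fewer genes were tested (778 higher and 1497 lower), and 3976 to 4763 as single libraries were left out. Under median-of-ratios scaling 2057 were higher. The ER count of 2989 became 1320 with that minimum and 1417 to 2819 without single libraries, lowest without ATF4-/- ER library b and 1710 without WT ER library b. The cytosol count of 3523 became 1769, and 2058 to 3673 without single libraries, with 2239 without ATF4-/- cytosol library b and 2290 without WT cytosol library a. The interaction count of 320 became 40 with that minimum, 159 in the fit of all footprint libraries and 0 with voom. It was 128 to 405 without single libraries, including 154 without ATF4-/- ER library b, 147 without ATF4-/- cytosol library b and 213 without WT cytosol library b. Of 1863 genes at least 2-fold apart in the pooled totals, 790 were counted with a minimum of 50 RPKM (274 higher, 516 lower), and 817 were higher and 895 lower after division by the median ratio. Apart from the smaller number of genes or samples, the cause was not tested. Of 172 named and tested genes, 147 passed as reported, 130 of them under every alternative, and none reversed. Many were named for small p-values or well separated genotypes in these same libraries, so part of this stability follows from the choice. Leaving out at least 1 library ended the call of 11 of them: Col1a1, Eif2s2, Fn1, Hars, Idi1, Kif20a, Runx2, Slc3a2, Slc7a6, Trp53 and Tubb3. Scaling ended those of Col1a1, Eif2s2, Idi1 and Slc3a2, voom those of Col1a1, Slc3a2 and Slc7a1, and the fit of all footprint libraries those of Canx, Kif20a, Lifr, Ncam1, P4ha1, Slc3a2, Slc7a1, Slc7a6, Srxn1 and Tubb3. Among the fits that left out a library, Hars and Trp53 lost it only without WT cytosol library a, at adjusted p = 0.053 and 0.065. No paired analysis was possible because the recovered libraries carry no replicate number. Depth limits low genes most, since a WT level below 4 reads is listed at 0.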
